A study of Mus musculus with 12 samples.

Results

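Choroid plexus genes are described here in hippocampal poly(A) RNA-seq, by 10 genes chosen by symbol: *Ttr*, *Kl*, *Folr1*, *Otx2*, *Aqp1*, *Clic6*, *Kcne2*, *Slc4a5*, *Enpp2* and *Sostdc1*. They are 10 of the 37991 gene IDs counted, each symbol matched exactly 1 ID, and 9 of them were among the 16399 genes that passed edgeR's expression filter. *Kcne2*, with 3 to 16 reads per library, did not pass. The libraries came from the hippocampi of 12 C57BL/6N mice, 6 labelled *Gadd45a*-WT (wild type) and 6 labelled *Gadd45a*-KO (*Gadd45a*-/-), siblings from matings of heterozygotes, all trained in the passive avoidance (PA) test, in which a mouse receives a foot shock on entering a dark compartment, and killed 1 h later. The labels give an age of 6 to 7 months, whereas the study's methods give adult males of a younger range. The line carries a neomycin cassette in place of the first exons of *Gadd45a*, in every cell, and the last exon remains. Each replicate is 1 mouse, and no untrained mice are part of the comparison.

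The choroid plexus is a folded epithelium inside the brain ventricles that secretes cerebrospinal fluid and forms the barrier between blood and that fluid. It is no part of the hippocampus, but the plexus of the lateral ventricle lies against the fimbria, next to the tissue that is dissected. Its epithelial cells make transthyretin in very large amounts and carry channels and transporters for water, ions and folate. Some genes of the set are also known from other brain cells, *Enpp2* from oligodendrocytes and *Kl* from neurons. In bulk tissue, fewer cells of a type and less RNA per cell cannot be told apart.

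Between 44594261 and 55540601 reads fell on genes per library. The targeted gene was examined first. *Gadd45a* averaged 2.58 ± 0.481 CPM (reads per 1000000, with TMM scaling; SD, n = 6) under the label *Gadd45a*-WT and 21.4 ± 1.07 CPM (SD, n = 6) under *Gadd45a*-KO, 3.06 higher on the log2 scale (adjusted p = 1.33e-10, edgeR's quasi-likelihood test, adjusted by Benjamini-Hochberg). The direction of these reads went against the label. However, counts per gene do not separate the replaced exons from the last exon, which remains in the line, so they cannot show the genotype. Libraries are therefore named by label, and fold changes are KO over WT by label. Hippocampal neuron markers were present in every library, with a summed level of 7620 to 9170 CPM over 10 genes. Libraries labelled KO replicates 2 and 3 stood apart: thalamic markers (6 genes) summed to 245 and 355 CPM there and to 56.8 to 98.0 CPM in the other 10 libraries. KO replicate 3 also had an oligodendrocyte sum (10 genes) of 7680 CPM, against 2430 to 3910 CPM, and an ependymal sum (10 genes) of 53.1 CPM, against at most 34.6 CPM. Comparisons between the labels are given with and without these libraries.

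Promoter sequences were found for 5 of the 10 genes in the RefSeq table of build GRCm38.p6, with 9 start sites in all. They were searched for TAATCC (or GGATTA on the other strand), the core of the motif bound by OTX2, the homeobox factor of choroid plexus epithelium that is itself in the set. This motif was in 1 of the 9 windows, a start of *Otx2*, and in 7.06% of all 32851 windows of the same length (250 bases before to 50 after a start). The *Otx2* window that holds it is shown with the match in capitals, at position -211 from the start. The windows of *Aqp1* and *Kl*, the tested genes with promoters in the table that varied most like *Ttr*, are shown beside it and hold no match, which says only that these letters are not in them.
*Otx2*, chr14:48665060-48665359, minus strand: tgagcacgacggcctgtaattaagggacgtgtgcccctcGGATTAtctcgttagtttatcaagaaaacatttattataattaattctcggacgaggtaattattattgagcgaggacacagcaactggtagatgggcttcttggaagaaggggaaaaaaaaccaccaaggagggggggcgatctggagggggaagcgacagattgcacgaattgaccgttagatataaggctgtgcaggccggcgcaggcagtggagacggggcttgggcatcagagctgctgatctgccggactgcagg
*Aqp1*, chr6:55336049-55336348, plus strand: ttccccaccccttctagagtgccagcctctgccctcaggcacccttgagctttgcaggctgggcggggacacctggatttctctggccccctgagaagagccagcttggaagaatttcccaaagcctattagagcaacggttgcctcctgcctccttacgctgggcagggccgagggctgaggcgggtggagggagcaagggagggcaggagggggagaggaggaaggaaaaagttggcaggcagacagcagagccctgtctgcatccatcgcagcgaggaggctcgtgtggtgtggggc
*Kl*, chr5:150952357-150952656, plus strand: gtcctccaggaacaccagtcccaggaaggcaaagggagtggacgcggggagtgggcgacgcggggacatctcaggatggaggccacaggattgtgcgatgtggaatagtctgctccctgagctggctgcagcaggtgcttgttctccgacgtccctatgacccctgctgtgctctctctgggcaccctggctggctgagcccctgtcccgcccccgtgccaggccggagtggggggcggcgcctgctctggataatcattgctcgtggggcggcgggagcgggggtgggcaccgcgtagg

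None of the 9 tested choroid plexus genes passed the test between the labels. At 1% FDR, edgeR's quasi-likelihood test called 0 of 9, and 434 of all 16399 genes, 2.65%, with 430 lower (2.62%) and 4 higher (0.0244%) under the KO label. At that share, 0 called of 9 does not set these genes apart. At an unadjusted p under 0.05 the count was 1 of 9, *Otx2*, and 2245 of all 16399 genes. DESeq2 called 0 and gave 1 gene at an unadjusted p under 0.05. The median log2 fold change of the 9 genes was 0.42, beside 0.00 over all genes tested. Above 0 were 8 of the 9, and 8494 of all 16399 genes. Without KO replicates 2 and 3, the median was 0.02, 0 genes were called and 0 had an unadjusted p under 0.05. The ranges of the labels overlapped for all 10 genes.

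**Figure D1:**
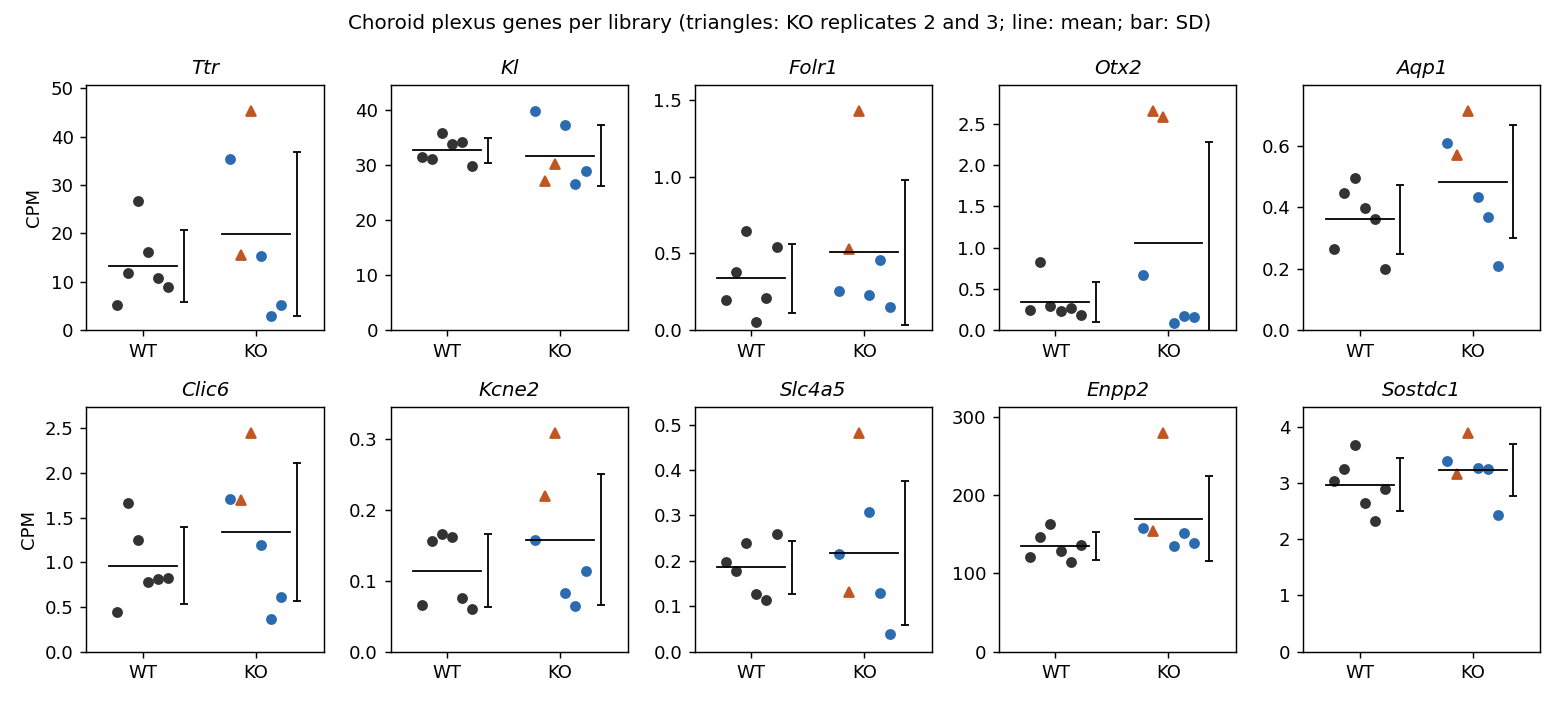
CPM of the 10 choroid plexus genes in each library (y axes, from 0), by label (x axes), with 1 symbol per library, the mean as a line and the SD as a bar (for *Otx2* it runs below the axis). Orange triangles are KO replicates 2 and 3, and the labels overlap in every panel.

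The 10 genes lay at very different levels. Per kb of exon, *Enpp2* had the highest mean level among the libraries labelled *Gadd45a*-WT, 38.8 ± 5.16 CPM per kb (SD, n = 6). *Ttr* followed with 10.8 ± 6.13, *Kl* with 6.40 ± 0.45 and *Sostdc1* with 1.70 ± 0.269 CPM per kb. The 6 others were all below 1, from *Clic6* with 0.246 through *Folr1*, *Aqp1*, *Otx2* and *Kcne2* to *Slc4a5* with 0.0318 CPM per kb. The ranges over libraries of *Ttr* and *Kl* overlapped, as did those of each pair of neighbours from *Clic6* to *Slc4a5*, whereas *Enpp2* and *Ttr*, *Kl* and *Sostdc1*, and *Sostdc1* and *Clic6* did not overlap. The libraries labelled *Gadd45a*-KO gave the same overlaps of neighbours, with *Otx2* placed above *Folr1*.

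*Ttr* (ENSMUSG00000061808; NCBIM37 chromosome 18, 20823751 to 20832825, plus strand) encodes transthyretin, the carrier of thyroid hormone in the cerebrospinal fluid. Among the libraries labelled *Gadd45a*-WT its lowest, median and highest levels were 5.17, 11.2 and 26.6 CPM. Among those labelled *Gadd45a*-KO they were 2.82, 15.3 and 45.3 CPM. KO replicates 1 and 3, with 35.3 and 45.3 CPM, were above every library labelled WT, and KO replicate 5 was below every one, so that the spread within a label, 16.1-fold for KO and 5.14-fold for WT, exceeded the difference between them. The log2 fold change was 0.58 (95% interval -0.58 to 1.75, adjusted p = 0.741 by edgeR's quasi-likelihood test, Benjamini-Hochberg adjusted), and 0.14 (-1.06 to 1.35) without KO replicates 2 and 3. An antisense gene that overlaps *Ttr*, *Gm16090*, had 11 reads over the 12 libraries, and counting used the strand.

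*Enpp2* (ENSMUSG00000022425; chromosome 15, 54670453 to 54751701, minus strand) encodes autotaxin, a secreted enzyme that makes lysophosphatidic acid. Its lowest, median and highest levels were 114, 132 and 163 CPM among the libraries labelled WT and 135, 153 and 279 CPM among those labelled KO. The 279 CPM belong to KO replicate 3, and the other 5 KO libraries lay between 135 and 158 CPM, inside the range of the libraries labelled WT. The log2 fold change was 0.33 (95% interval from just under 0 to 0.67, adjusted p = 0.372, edgeR's quasi-likelihood test, adjusted by Benjamini-Hochberg) and 0.12 (-0.07 to 0.30) without KO replicates 2 and 3.

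*Kl* (ENSMUSG00000058488; chromosome 5, 151755182 to 151796384, plus strand) encodes Klotho, a membrane protein that is also shed and acts as a co-receptor for a fibroblast growth factor. It varied least of the 10 genes, 29.8 to 35.9 CPM in the libraries labelled WT and 26.5 to 39.8 CPM in those labelled KO, 1.5-fold over all 12. Its log2 fold change was -0.05 (95% interval -0.25 to 0.16, adjusted p = 0.905 by edgeR's quasi-likelihood test, Benjamini-Hochberg adjusted), an interval that leaves room for differences of at most 0.25 in either direction, and 0.02 without KO replicates 2 and 3. *Sostdc1* (ENSMUSG00000036169; chromosome 12, 37040756 to 37045039, plus strand), which encodes a secreted antagonist of BMP and Wnt signalling, was nearly as even, with 2.32 to 3.67 CPM for WT and 2.43 to 3.89 CPM for KO. Its log2 fold change was 0.12 (95% interval -0.14 to 0.38, adjusted p = 0.762 with the same test), and 0.05 (-0.23 to 0.34) without KO replicates 2 and 3.

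The genes of transport were low. *Clic6* (ENSMUSG00000022949; chromosome 16, 92485981 to 92541488), a chloride intracellular channel family member, had 0.440, 0.818 and 1.67 CPM as lowest, median and highest levels for WT and 0.368, 1.44 and 2.45 CPM for KO. KO replicates 1 and 2, with 1.71 and 1.69 CPM, and KO replicate 3 were above every library labelled WT, the first pair by a small margin, and KO replicate 5 was below every one. The log2 fold change was 0.48 (95% interval -0.36 to 1.31, adjusted p = 0.687, edgeR's quasi-likelihood test, adjusted by Benjamini-Hochberg), and 0.02 (-0.82 to 0.86) without KO replicates 2 and 3. A gene on the same strand, *2410124H12Rik*, overlaps *Clic6* and had 47 reads over the 12 libraries; reads in the shared stretch may be missing from both.

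*Aqp1* (ENSMUSG00000004655; chromosome 6, 55286426 to 55298549), the water channel of the apical membrane, had 0.200 to 0.496 CPM for WT and 0.209 to 0.713 CPM for KO, with 10 to 37 reads per library. Its 3 highest values were those of KO replicates 1, 2 and 3, and its log2 fold change was 0.42 (95% interval -0.18 to 1.01, adjusted p = 0.590 by edgeR's quasi-likelihood test, Benjamini-Hochberg adjusted) and 0.16 without KO replicates 2 and 3. *Kcne2* (ENSMUSG00000039672; chromosome 16, 92292634 to 92298374), a beta subunit of potassium channels, had 0.0599 to 0.165 CPM for WT and 0.0650 to 0.308 CPM for KO. *Slc4a5* (ENSMUSG00000068323; chromosome 6, 83169822 to 83254939), a sodium bicarbonate cotransporter, had 0.114 to 0.260 CPM for WT and 0.0380 to 0.482 CPM for KO, with 2 to 25 reads per library. At such counts neither gene allows a fine comparison. Fitted without the filter, *Kcne2* had a log2 fold change of 0.46 (95% interval -0.39 to 1.31), and *Slc4a5* had 0.24 (-0.68 to 1.16) with the filter and -0.11 (-1.01 to 0.80) without KO replicates 2 and 3, a fit that *Kcne2* did not enter.

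*Folr1* (ENSMUSG00000001827; chromosome 7, 109006845 to 109019302, minus strand) encodes the folate receptor that carries folate into the cerebrospinal fluid. Its lowest, median and highest levels were 0.0541, 0.294 and 0.643 CPM among the libraries labelled WT and 0.152, 0.355 and 1.43 CPM among those labelled KO. Only KO replicate 3, with 74 reads, was above the highest library labelled WT, which had 35 reads. The log2 fold change was 0.59 (95% interval -0.60 to 1.79, adjusted p = 0.746, edgeR's quasi-likelihood test, adjusted by Benjamini-Hochberg), -0.07 without KO replicate 3 alone, and -0.32 (-1.41 to 0.76) without KO replicates 2 and 3.

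*Otx2* (ENSMUSG00000021848; chromosome 14, 49277354 to 49287319, minus strand) had the largest fitted difference of the 9 and the widest range of the 10 genes, 32.3-fold over the 12 libraries. Its lowest, median and highest levels were 0.180, 0.254 and 0.823 CPM for WT and 0.0823, 0.420 and 2.66 CPM for KO. KO replicates 2 and 3 had 2.66 and 2.58 CPM, from 121 and 134 reads, while the other 4 KO libraries lay between 0.0823 and 0.667 CPM, and the highest library labelled WT was replicate 2. The log2 fold change was 1.65 (95% interval 0.03 to 3.26, adjusted p = 0.353, edgeR's quasi-likelihood test, adjusted by Benjamini-Hochberg). It was -0.29 (-1.48 to 0.89) without KO replicates 2 and 3, so that its sign changed without these libraries. With WT replicate 2 alone left out it was 2.1. A fit without KO replicates 2 and 3 and WT replicate 2 together was not run. KO replicates 2 and 3 are also those with the highest sums of thalamic markers, whose part in the difference was not tested.

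**Figure D2:**
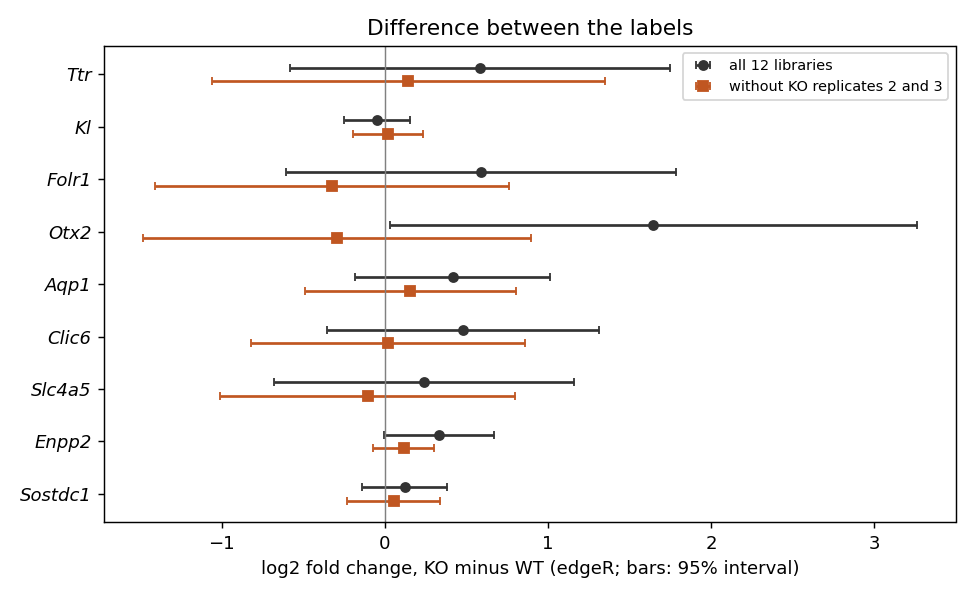
Log2 fold change (x axis, KO over WT by label) of the 9 tested choroid plexus genes with 95% intervals from edgeR, with all 12 libraries (black circles) and without KO replicates 2 and 3 (orange squares). *Otx2* moved from 1.65 to -0.29, and the median of the 9 genes from 0.42 to 0.02.

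KO replicate 3 was the library with the highest CPM for 8 of the 10 genes, all except *Kl*, highest in KO replicate 1, and *Otx2*, highest in KO replicate 2. Over all tested genes, KO replicate 3 was the highest library for 14.8%. Of the 32 other choroid plexus genes examined, 18 were highest in KO replicate 3. The lowest library of the 10 genes was spread over 6 libraries, with 3 genes lowest in KO replicate 5. The oligodendrocyte, thalamic and ependymal sums of KO replicate 3 were likewise the highest of all libraries, and their part in the levels of the 10 genes was not tested. Its sum of hippocampal neuron markers, 7620 CPM, was the lowest.

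The 32 other choroid plexus genes likewise held no gene that passed the test. edgeR's quasi-likelihood test called 0 of the 26 tested at 1% FDR and gave 5 at an unadjusted p under 0.05, and DESeq2 called 0 and gave 6. Over all 16399 genes tested, edgeR called 434 (2.65%) and gave 2245 at an unadjusted p under 0.05, and 8494 had a log2 fold change above 0. At that share, 0 called of 26 does not set these genes apart. The median log2 fold change of the 26 genes was 0.25, with 21 of 26 above 0. It was -0.07 without KO replicates 2 and 3, with 0 called and 2 at an unadjusted p under 0.05. In at least 1 library *Kcnj13*, *Mfrp* and *Slc16a8* had 0 reads, which allows up to 3 reads by counting error alone. The summed level of the 32 genes, 161 to 220 CPM, differed little between libraries (1.36-fold), since most of it comes from *Car12*, *Slc29a4*, *Cab39l* and *Igf2*, which had 24.7 to 40.4 CPM on average for WT.

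Whether the genes varied together was examined within each label, over 6 libraries each, so that a difference between labels could not make a correlation. Pearson's r of log2 CPM was above 0 for 36 of 45 pairs in the libraries labelled WT (median r 0.46). For the libraries labelled KO, pairs with *Otx2* were left out, because its 2 high and 4 low libraries form separate clusters, and r was above 0 for 33 of the other 36 pairs (median r 0.65). At least 0.8 before rounding was reached by 2 pairs in WT and 8 in KO. These counts cover unlike sets of 45 and 36 pairs, since pairs with *Otx2* were kept for WT. With 1 library left out they became 1 to 9 for WT and 3 to 14 for KO. The 3 arose without KO replicate 3, where the median r was 0.50. In the exact permutation test, 0 of the 90 pairs computed passed an adjusted p of 0.05, and the smallest adjusted p was 0.125. The smallest p that 6 libraries allow in this test is 0.00139. Adjusted over 90 pairs it is 0.125 for a single pair, so no pair could pass alone. All pairs share the same 6 libraries, so they are not independent of each other. The difference between the labels in these counts was not tested. The same counts over pairs of other genes were not made, so they are not shown to be particular to this set.

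**Figure D3:**
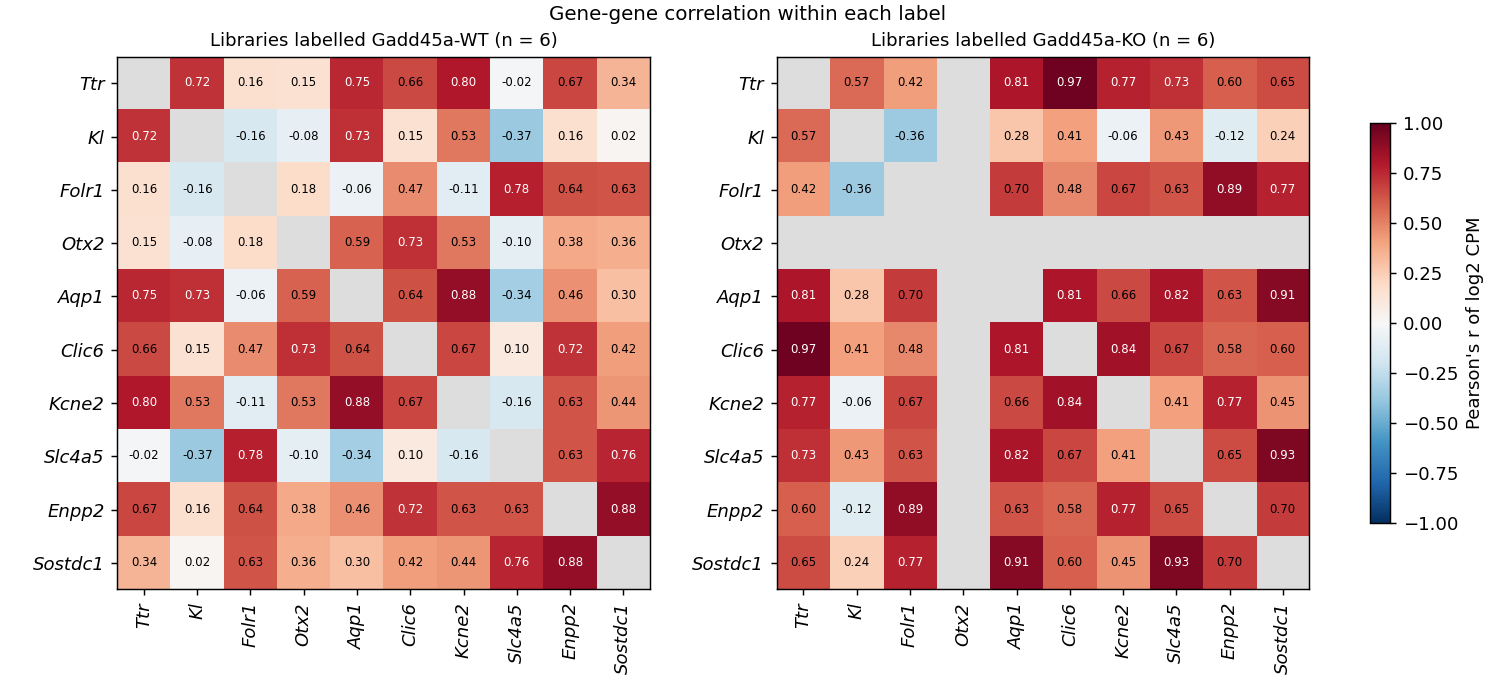
Pearson's r of log2 CPM for each pair of the 10 choroid plexus genes (rows and columns), within the 6 libraries labelled WT (left) and the 6 labelled KO (right), red above 0 and blue below 0. Grey marks the diagonal and, for KO, pairs with *Otx2*, where no r is given. The darkest cell off the diagonal is *Ttr* with *Clic6* for KO, 0.97, and *Kl* had the palest row for KO.

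*Ttr* and *Clic6* had the highest r of the pairs for KO, but not for WT, where *Aqp1* with *Kcne2* and *Enpp2* with *Sostdc1* had the highest, 0.88 each. Without the 2 farthest libraries these were 0.76 and 0.46, and *Kcne2* had only 3 to 9 reads per library for WT. For *Ttr* with *Clic6* in the libraries labelled KO, r was 0.97 and Spearman's rho 1.00 (two-sided exact permutation p = 0.00139 for r, the smallest that 6 libraries allow, adjusted p = 0.125), and r was 0.90 without the 2 libraries farthest from the median of *Ttr*. In those labelled WT, r was 0.66 and rho 0.49 (exact permutation p = 0.128), and -0.04 without the 2 farthest libraries, so that there the relation rested on WT replicates 1 and 3. *Clic6* was 4.70% to 14.3% of *Ttr* by CPM over the 12 libraries, a 3.04-fold range, while *Ttr* itself ranged 16.1-fold and *Clic6* 6.65-fold.

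*Aqp1* had a positive r with *Ttr* in both labels, from 10 to 37 reads per library. By CPM it was 1.58% to 13.1% of *Ttr* over the 12 libraries. This 8.3-fold range was wider than the 3.57-fold range of *Aqp1* itself, so the levels were not proportional. Its r was 0.75 and rho 0.89 for WT (exact permutation p = 0.0847 for r, 0.70 without the 2 farthest libraries) and its r 0.81 and rho 0.94 for KO (exact permutation p = 0.0458, 0.92 without the 2 farthest). *Kcne2* had r of 0.80 with *Ttr* for WT, just under 0.8 before rounding (exact permutation p = 0.0264) and 0.77 for KO (exact permutation p = 0.0708), but with 3 to 16 reads per library this is no finding. *Kl* had r of 0.72 for WT and 0.57 for KO with *Ttr*, over a far smaller range of levels, and *Folr1* only 0.16 and 0.42. None of these passed the adjustment over 90 pairs.

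To place these values, every tested gene was ranked by its likeness to *Ttr*, taken as the smaller of its r values for WT and for KO, as a description with no test. Only 9 of 16398 genes, 0.0549%, had a likeness of at least 0.8, and 0 of the 8 other tested members did. The median likeness was 0.45 for these 8 and -0.30 over all genes, and -0.09 for the 26 other choroid plexus genes tested. *Aqp1* ranked 19th with 0.75, *Clic6* 61st with 0.66, *Enpp2* 147th with 0.60 and *Kl* 192nd with 0.57. *Sostdc1* (0.34), *Folr1* (0.16), *Otx2* (0.15, its r for WT) and *Slc4a5* (-0.02) ranked 1128th or lower. Of the other choroid plexus genes, the closest were *F5*, coagulation factor V, with 0.81 at rank 7, *Kcnj13*, a potassium channel, with 0.62, *Krt18*, an epithelial keratin, with 0.51, and *Cldn2*, a tight junction claudin, with 0.48.

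Among the genes outside the set with the highest likeness were *BC106179* (0.87), *Gm9153* (0.86), *Slc43a2* (0.82), *Tram2* (0.82), *Ddx60* (0.81), *F5* (0.81), *Mrpl45* (0.81), *Acot1* (0.81) and *Golt1b* (0.79). Their ranges over the 12 libraries were smaller than the 16.1-fold range of *Ttr*, from 1.08-fold for *Mrpl45*, 1.15-fold for *Golt1b*, 1.26-fold for *Slc43a2* and 1.27-fold for *Acot1*, through 1.55-fold for *Tram2*, 1.84-fold for *BC106179* and 1.97-fold for *Ddx60*, to 3.21-fold for *Gm9153* and 7.39-fold for *F5*. How many of the 16398 genes reach such r by chance was not estimated.

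*Folr1* and *Enpp2* had higher r in both labels with the summed markers of another cell type than with *Ttr*, a difference that was not tested. *Folr1* followed the ependymal list (10 genes of motile cilia and ependymal cells, the cells that line the ventricles). In the libraries labelled WT, r with the summed level was 0.95 and rho 0.94 (exact permutation p = 0.00694, adjusted p = 0.205 over 180 relations of members with lists), and 0.90 without the 2 farthest libraries. In those labelled KO, r was 0.98 and rho 1.00 (exact permutation p = 0.00139, adjusted p = 0.167), and 0.97 without the 2 farthest. Taken singly, 10 of the 10 ependymal genes had r of at least 0.8 with *Folr1* for WT and 9 of 10 for KO. *Folr1* was 0.493% to 2.69% of the ependymal sum, a 5.45-fold range that was wider than that of the sum (4.84-fold) and narrower than that of *Folr1* (26.4-fold). For KO, *Folr1* also had r of 0.88 with the oligodendrocyte sum (exact permutation p = 0.0278, adjusted p = 0.294), and 0.50 without the 2 farthest libraries. For WT this r was 0.34 (exact permutation p = 0.499). *Ttr* had r of 0.33 for WT (exact permutation p = 0.521) and 0.39 for KO (exact permutation p = 0.432) with the ependymal sum.

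*Enpp2* followed the oligodendrocyte list (10 genes, among them *Mbp* and *Mog*). For KO, r was 1.00 and rho 0.94 (exact permutation p = 0.00417, adjusted p = 0.188), and 0.94 without the 2 farthest libraries. For WT, r was 0.88 and rho 0.83 (exact permutation p = 0.0264, adjusted p = 0.294), and 0.58 without the 2 farthest. *Enpp2* also had r with the ependymal sum of 0.80 for WT (exact permutation p = 0.0569) and 0.84 for KO (exact permutation p = 0.025). These were 0.79 and 0.54 without the 2 farthest libraries. With the astrocyte sum its r was -0.28 for WT (exact permutation p = 0.581). For KO it was -0.98 (exact permutation p = 0.0167), and -0.47 without the 2 farthest. *Enpp2* stayed within 3.64% to 4.69% of the oligodendrocyte sum in all 12 libraries, a 1.29-fold range. *Enpp2* ranged 2.45-fold, less than the sum (3.16-fold), so it was not strictly proportional to it. The high *Enpp2* of KO replicate 3 came with the highest oligodendrocyte sum. *Sostdc1* had r of 0.92 with that sum for WT (exact permutation p = 0.0125, adjusted p = 0.205) and 0.67 for KO (exact permutation p = 0.214), and these were 0.59 and 0.19 without the 2 farthest libraries. With the ependymal sum, r of *Sostdc1* was 0.73 for WT (exact permutation p = 0.0986) and 0.67 for KO (exact permutation p = 0.144). Its r with *Ttr* was 0.34 for WT and 0.65 for KO. Taken singly, 10 of 10 oligodendrocyte genes had r of at least 0.8 with *Sostdc1* for WT and 0 of 10 for KO (0.54 to 0.72). *Sostdc1* was 0.0507% to 0.104% of the oligodendrocyte sum, a 2.05-fold range that was wider than its own 1.68-fold range.

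The highest *Otx2* levels were in the libraries with the highest sums of thalamic markers (*Tcf7l2*, *Prkcd*, *Lef1* and 3 others). KO replicates 2 and 3 had both the highest *Otx2*, 2.66 and 2.58 CPM, and the highest thalamic sums, 245 and 355 CPM, and since they form a separate cluster no r is given for KO. For WT, r of *Otx2* with the thalamic sum was 0.47 and rho 0.37 (exact permutation p = 0.389). WT replicate 2, highest of its label in *Otx2* at 0.823 CPM, also had the highest thalamic sum of its label, 98.0 CPM, but WT replicate 6, lowest in *Otx2* at 0.180 CPM, had a thalamic sum of 84.9 CPM, and taken singly 0 of 6 thalamic genes had r of at least 0.8 with *Otx2* for WT (-0.88 to 0.71). Other lists were high in the same libraries. The meningeal and stromal sums of WT replicate 2 and KO replicates 2 and 3, 92.0, 91.6 and 91.3 CPM, were the 3 highest of 12. The sum of the 32 other choroid plexus genes was 206, 220 and 213 CPM there, the highest of each label, though WT replicate 6 had 203 CPM. Most of this sum comes from *Car12*, *Slc29a4*, *Cab39l* and *Igf2*, whose likeness to *Ttr* was -0.72, -0.71, 0.11 and -0.26. The part of these lists in the level of *Otx2* was not tested. None of the 180 relations with lists, which were computed after the levels had been seen, passed an adjusted p of 0.05. With 6 libraries a label, no single relation could pass that adjustment alone. Relations not described above were as strong. *Ttr* with the blood sum had r of -0.94 for WT (exact permutation p = 0.00278) and 0.63 for KO (exact permutation p = 0.185). *Kl* with the sum of the 32 other choroid plexus genes had -0.91 for WT (exact permutation p = 0.0111) and -0.26 for KO (exact permutation p = 0.589). *Ttr* with that sum had -0.53 for WT and 0.52 for KO.

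**Figure D4:**
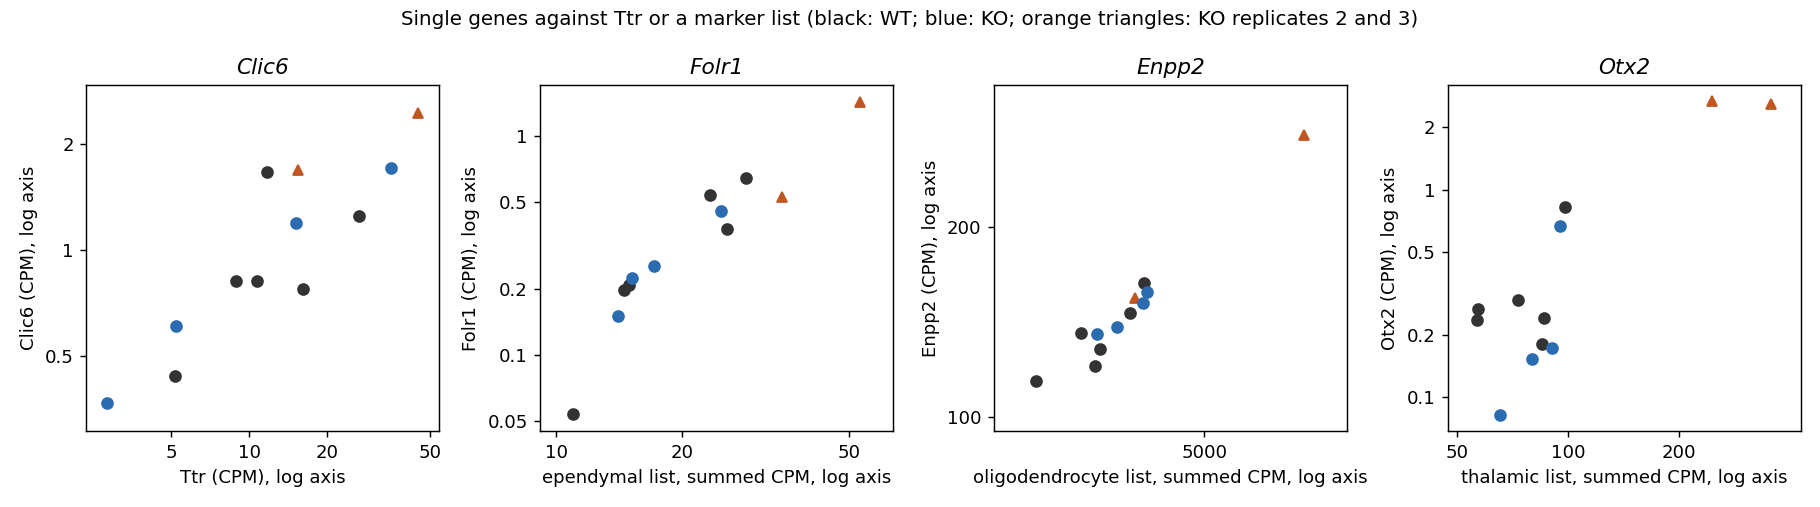
*Clic6* against *Ttr*, *Folr1* against the ependymal sum, *Enpp2* against the oligodendrocyte sum and *Otx2* against the thalamic sum, in CPM on log axes, 1 symbol per library (black WT, blue KO, orange triangles KO replicates 2 and 3). *Enpp2* lies between 3.64% and 4.69% of the oligodendrocyte sum, and the 2 triangles stand alone in the *Otx2* panel.

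Of the marker lists, 1 held a gene that passed the test. edgeR's quasi-likelihood test called 0 of 10 ependymal, 0 of 10 oligodendrocyte, 0 of 5 thalamic, 0 of 10 meningeal and stromal, 0 of 9 endothelial, 0 of 6 astrocyte and 0 of 3 blood genes tested, with 1, 9, 5, 1, 3, 2 and 0 at an unadjusted p under 0.05. Over all 16399 genes tested, edgeR called 434 (2.65%) and gave 2245 at an unadjusted p under 0.05. With lists this short, 0 called does not set them apart. DESeq2 also called 0 in each of these lists, with 2, 3, 5, 0, 3, 2 and 0 at an unadjusted p under 0.05. Without KO replicates 2 and 3, edgeR called 0 in each and gave 0, 0, 0, 0, 1, 1 and 1 in the same order. Median log2 fold changes were 0.45 for ependymal, 0.45 for oligodendrocyte and 1.22 for thalamic genes, and -0.18, 0.17 and 0.07 without KO replicates 2 and 3. They were 0.40 for meningeal and stromal, 0.12 for endothelial, 0.05 for astrocyte and -0.27 for blood genes, and 0.13, 0.14, 0.05 and -0.40 without these libraries. The only gene called in any list was *Zbtb20*, a zinc finger factor of hippocampal neurons, at 381 ± 36.4 CPM (SD, n = 6) for WT and 283 ± 21.5 CPM (SD, n = 6) for KO, a log2 fold change of -0.43 (adjusted p = 0.00113, edgeR's quasi-likelihood test, adjusted by Benjamini-Hochberg), where the labels did not overlap. Without KO replicates 2 and 3 it was -0.40 (adjusted p = 0.00935 with the same test). Its list of 10 hippocampal neuron genes had a median log2 fold change of -0.11, and -0.07 without these libraries.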

How the data were processed

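Poly(A) RNA-seq libraries of 12 hippocampi were used, grouped by the sample labels. The authors aligned reads with TopHat 1.4.1 to NCBIM37/mm9 and deposited raw read counts per Ensembl gene, made with strand-specific htseq-count (HTSeq 0.5.4p3). Between 44594261 and 55540601 reads per library fell on genes. Reads with no gene, 11.5% to 13.9% of the total, were left out. The 10 members and all lists were chosen with earlier results of these data known. Counts were filtered with filterByExpr, scaled with TMM and tested with edgeR 4.0.16 (R 4.3.3) without covariates over all 16399 genes, at 1% FDR with Benjamini-Hochberg adjustment. The intervals come from the same fit and the script was tested on simulated data. CPM used TMM library sizes, and log2 CPM a prior count of 2, or a pseudocount of 1 for list sums. Correlations used exact permutation over 720 pairings (Python 3.11.15, scipy 1.17.1), and figures matplotlib 3.10.9. Intervals of counts and floors cover counting error only, and 37205 of 37991 gene IDs matched a symbol in an annotation of the same build but an earlier Ensembl release. RefSeq promoters are on another build, GRCm38.p6, and no coordinates were converted.

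Named genes were the 10 members, other choroid plexus genes called or among the 4 most like *Ttr*, the 10 non-members most like *Ttr*, *Gadd45a*, and marker genes called. A gene that this rule names is not reported here. Genes named as examples of a list, at 0 or as the bulk of a sum were added after their values were seen. Alternatives were RLE factors, library totals, no filter, at least 10 reads in every library, DESeq2 1.42.0, a replicate block, 5% FDR, linear CPM, a prior count of 0.5 and leaving out each library. Leaving out KO replicates 2 and 3, and the relations with list sums, were added after seeing the data.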

Additional observations from a re-analysis of the deposited data

Results flagged for a closer look

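Among 38 groups of 6 libraries examined (each of the 10 genes and each list's sum, per label), 5 held a library far from the others of its label by Dixon's criterion, where about 1 in 20, or 1.90, arise by chance. KO replicate 3 accounted for 4 of them. It had 1.43 CPM of *Folr1*, where its label otherwise spanned 0.152 to 0.527 CPM. Its *Enpp2* was 279 CPM, with the others between 135 and 158 CPM. The oligodendrocyte sum was 7680 CPM there, with the others between 3150 and 3910 CPM, and the astrocyte sum was low, 4380 CPM, with the others between 4810 and 4990 CPM. The fifth was *Otx2* in WT replicate 2, 0.823 CPM, where its label otherwise spanned 0.180 to 0.294 CPM.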

How the results depend on the processing

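Over every alternative run, 0 of the tested choroid plexus genes were called. Log2 fold changes turned sign for *Kl* (0.00 without KO replicate 2, 0.01 without KO replicate 5), for *Folr1* (-0.07 without KO replicate 3), with 1 library left out ranges of -0.12 to 0.01 and -0.07 to 0.91, and, without KO replicates 2 and 3, for *Kl* (0.02), *Folr1* (-0.32), *Otx2* (-0.29) and *Slc4a5* (-0.11). The 434 genes called over all genes became 685 with DESeq2 (667 lower), 746 at 5% FDR, 202 without KO replicates 2 and 3, and 242 to 470 with 1 library left out, by over 1.5 times without WT replicates 3 (272), 5 (242) or 6 (264) or KO replicates 1 (252), 2 (279) or 6 (252). Pairs with r of at least 0.8 among the libraries labelled WT went from 2 to 4 on linear CPM and to 1 to 9 with 1 library left out, over 1.5 times in each case (4, 9, 1, 4, 5 and 6 without replicates 1 to 6). For KO they went from 8 to 3 to 14, over 1.5 times without replicate 3 (3) or 5 (14).

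Libraries with equal replicate numbers correlated by -0.0761 to 0.262 in their deviations, under 0.1 for number 6, so the numbers were not taken to pair them. A fit with these numbers as a replicate block called 514 of all genes, 394 of them shared with the fit without it, and 0 choroid plexus genes (smallest adjusted p = 0.106, *Enpp2*, edgeR's quasi-likelihood test). Only 1 of 6 libraries correlated best with its own number.

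Low counts limit *Kcne2*, *Slc4a5*, *Folr1*, *Otx2* and *Aqp1*, and 6 libraries a label limit every correlation.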
